A study of Callithrix jacchus with 5 samples.

Results

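The genes described here stood at least 6 times lower in the embryonic stem (ES) cell line No20 than in every other pluripotent library of a common marmoset (Callithrix jacchus) series. They were chosen by a rule on CPM, a gene's read count divided by the total count of its library and multiplied by 1000000. A gene had to reach at least 5 CPM in ES line No40, ES line DSY127 and the induced pluripotent stem (iPS) cell library RNAiPS_1, and its CPM in No20 had to be at most the lowest of those 3 values divided by 6. These 3 libraries are called the reference libraries below. Of 30811 gene identifiers in the count table, 10285 reached 5 CPM in the reference libraries, and 73 met both thresholds before 4 were set aside by name, which left 69 genes. A symbol was available for 48 of them, and the other 21 are known by identifier only.

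The series holds 5 RNA sequencing libraries of cultured marmoset cells: fibroblasts E01F, 3 ES lines and the iPS library. No40 is labelled P63, DSY127 P17, No20 P45 and the fibroblasts P1, with P not spelled out, and the iPS library has no such label. Each line is a single library, with sex, age, growth conditions and treatments not given in the sources used here. A property of the No20 line cannot be told apart from a property of its culture or its library. Total counts were 40825547 in No20, 46523012 in No40, 34111715 in DSY127, 5746449 in the iPS library and 58601185 in the fibroblasts, and 3 counts corresponded to 0.0735 CPM in No20, 0.522 CPM in the iPS library and 0.0512 CPM in the fibroblasts.

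Many of the 69 genes are known from the germ line. In germ cells, Tudor-domain proteins and their partners gather in cytoplasmic granules where PIWI-interacting RNAs silence transposons, and a separate set of genes starts meiosis. In the oocyte, maternal-effect proteins form a complex under the egg surface that the early embryo needs. The promoters of many such genes carry DNA methylation in somatic cells, and several of the genes are active in pluripotent cells.

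The rule fixed the low level in No20, so the values in No20 and in the reference libraries are a description without a test. The lowest reference value exceeded the No20 value by 6.02 to 313 times, with a median of 15.2, and by at least 20 times for 26 genes. No gene was without a count in No20: the fewest was 1 count, 38 of the 69 were under 1 CPM, and 7 were still at or above 5 CPM there. Those 7 genes were thus low in No20 rather than lost from it, whereas for genes with a few counts low and lost cannot be told apart. The 3 genes just inside the threshold were TMEM176B, STAC2 and ENSCJAG00000002437, with ratios of 6.02, 6.11 and 6.23. The 3 just outside were ENSCJAG00000009492, ENSCJAG00000017085 and ZNF177, with 5.89, 5.75 and 5.73. For 20 genes the 95% exact interval of the ratio (from the binomial split of the counts, which covers counting error alone) reached below 6.

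With the same thresholds and each pluripotent library in turn as the low one, No20 gave 69 genes, or 0.671% of the 10285 that could have met the rule. The iPS library gave 12 (0.117% of 10291), No40 gave 3 (0.0297%) and DSY127 gave 3 (0.0297%). The iPS library, with the smallest total count, thus had the next largest number. With another library as the low one, No20 itself had to reach 5 CPM, so genes low in both could not be counted. These counts use the values of the rule and are a description without a test.

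The No20 library carried the pluripotency factors POU5F1, NANOG and SOX2 at levels near those of the reference libraries, while others of the core pluripotency list stood lower. POU5F1 stood at 1212 CPM in No20 and at 1324 to 1826 CPM in the reference libraries, NANOG at 559.9 against 489 to 592 CPM, and SOX2 at 156 against 172 to 258 CPM. None of the 15 measured genes of that list was among the 69. In No20, 4 of the 15 stood below 0.5 times the lowest reference value (26.7%, against 3.44% of all 10285 genes): LIN28B at 180.0 against at least 692 CPM, DNMT3B at 762 against 1892 CPM, GDF3 at 48.5 against 196 CPM and DPPA2 at 5.09 against 22.4 CPM. The summed level of that list was 3910 CPM in No20 against 6319 to 8148 CPM in the reference libraries. The summed level of 26 fibroblast and mesenchymal markers was 6857 CPM in No20. It was 7691 CPM in No40, 6453 in DSY127, 15915 in the iPS library and 89906 in the fibroblast library. Of 23 at 5 CPM or more, 6 stood higher in No20 than in any reference library (26.1%, against 27.5% of all genes). Among the 6 was VIM, at 1328 against 454 to 577 CPM, while 1 of the 23 stood below 0.5 times the lowest reference value. Of 15 epithelial genes at 5 CPM or more, 13.3% stood below 0.5 times the lowest reference value in No20, against 3.44% of all. CDH1 was among them, at 227 against 556 to 864 CPM. The part of these lists in the results below was not tested.

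Genes of the oocyte and the early embryo are described first. Of 23 measured genes on an oocyte and embryo list, 4 reached 5 CPM in the reference libraries, and all 4 (NLRP7, NLRP9, KHDC3L and TLE6) are among the 69. NLRP7, an NLR-family gene whose loss in the mother causes recurrent molar pregnancy in humans, stood at 228 CPM in No40, 811 in DSY127 and 751 in the iPS library, at 7.25 CPM in No20 and at 0.137 CPM in fibroblasts. KHDC3L, a KH-domain protein of the subcortical maternal complex with the same link to molar pregnancy, stood at 117, 390.4 and 231 CPM in the reference libraries, 0.539 in No20 and 7.93 in fibroblasts. Fibroblasts thus held more KHDC3L than No20 did, the reverse of NLRP7. TLE6, another member of the subcortical maternal complex, stood within 22.97 to 23.8 CPM in all 3 reference libraries, at 1.76 CPM in No20 and at 0.0341 CPM (2 counts) in fibroblasts. NLRP9, an oocyte-expressed relative of NLRP7, was the most uneven of the 69 in the reference libraries, with 18.5 CPM in No40 against 335 in DSY127 and 471 in the iPS library. It stood at 0.784 CPM in No20 and had no count in fibroblasts. Reads may be shared between near-identical NLRP genes, and the values of that family are uncertain to that extent.

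**Figure D1:**
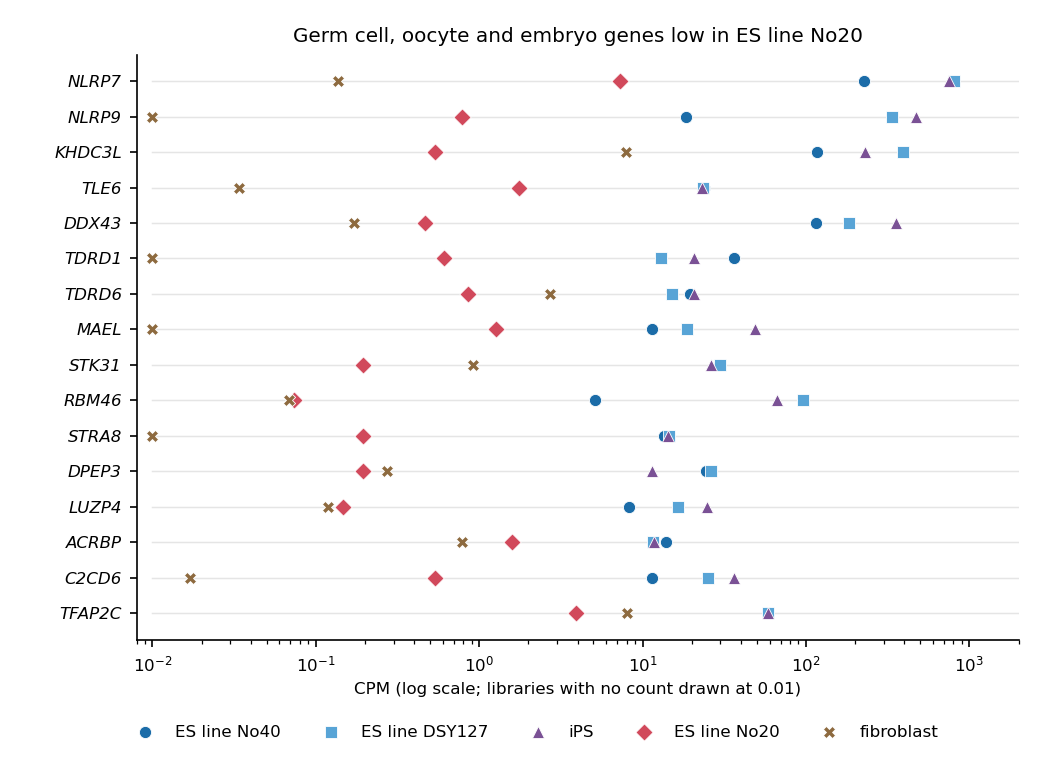
Level of 16 genes known from germ cells, oocytes or early embryos in each of the 5 libraries, in CPM on a log axis; each symbol is 1 library. The No20 symbols lie at least 6 times to the left of all 3 reference libraries by the rule, whereas the fibroblast symbols, which the rule did not use, lie left of No20 for NLRP7, TLE6 and MAEL and right of it for KHDC3L, STK31 and TFAP2C.

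The set also held 4 genes of a list of piRNA and germ granule genes, of which 26 were measured and 10 reached 5 CPM in the reference libraries. TDRD1, a Tudor-domain scaffold of the piRNA pathway, stood at 36.3, 12.96 and 20.7 CPM in No40, DSY127 and the iPS library, 0.612 in No20 and without a count in fibroblasts. TDRD6, a Tudor protein of the chromatoid body, stood at 19.4, 15.2 and 20.7 CPM, with 0.857 in No20 and 2.71 in fibroblasts. STK31, a Tudor-domain kinase of the testis, was nearly even in the reference libraries at 29.5, 29.8 and 26.1 CPM and stood at 0.196 CPM (8 counts) in No20, 133 times below the lowest of them (95% interval 65.9 to 314). MAEL, which protects the germline genome from transposons, was less reduced: it stood at 11.5, 18.7 and 48.9 CPM in the reference libraries and at 1.27 CPM in No20, a ratio of 9.01 (6.77 to 12.2).

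The other 6 genes of that list that reached 5 CPM showed ratios from 0.283 to 2.52. TDRKH, a mitochondrial Tudor protein, stood at 48.2 CPM in No20 against 102 to 120.4 CPM in the reference libraries. DDX25, a testis RNA helicase, was higher in No20 (26.4 CPM) than in any reference library (7.48 to 14.2 CPM). Of 27 measured meiosis genes, 6 reached 5 CPM and 1, STRA8, is in the set. STRA8, the retinoic acid-responsive gene that starts meiosis, stood at 13.5, 14.5 and 14.3 CPM in the reference libraries, 0.196 CPM (8 counts) in No20 and without a count in fibroblasts. TEX11, a meiotic recombination gene on the same list, stood at 4.29 CPM in No20 against 9.56 to 22.6 CPM. Of 24 measured genes on a list of testis and other germline genes, 3 reached 5 CPM, and DPEP3, a testis dipeptidase, is in the set with 24.5, 26.1 and 11.5 CPM against 0.196 CPM in No20. SOHLH2, a germ cell transcription factor, is not: it stood at 92.8 CPM in No20, between 12.5 CPM in No40 and 118 CPM in DSY127. The 4 genes set aside by name met the thresholds but were taken off the lists and out of the counts of the lists. They were not taken out of the fit over all genes. Over these 4 germline lists together, 10 of the 23 genes at 5 CPM or more met the rule, against 0.671% of all genes that could. The lists were chosen with earlier results of these data known, so this share is a description and was not tested.

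Other genes with a known place in germ cells were not on a list and were picked out after their values were seen. DDX43, a DEAD-box helicase first known as a cancer-testis antigen, stood at 115 CPM in No40, 185 in DSY127 and 356 in the iPS library, but at 0.465 CPM in No20 and 0.171 CPM in fibroblasts. Its lowest reference value was 248 times that of No20 (95% interval 159 to 413), the highest ratio of the 48 genes with a symbol. RBM46, an RNA-binding protein needed for meiotic entry, stood at 95.9 CPM in DSY127 and 66.5 in the iPS library and at 5.12 CPM in No40, just past the minimum of 5. With 3 counts it stood at 0.0735 CPM in No20, a ratio of 69.6 (23.5 to 340.0). LUZP4, an X-linked cancer-testis antigen that acts in mRNA export, stood at 8.28, 16.6 and 24.7 CPM in the reference libraries and 0.147 CPM in No20. The sperm genes ACRBP, an acrosome protein, and C2CD6, a protein of the sperm calcium channel complex, stood at 1.59 and 0.539 CPM in No20 against at least 11.6 and 11.5 CPM.

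TFAP2C, a transcription factor of primordial germ cells, trophoblast and naive pluripotency, was the most even member: it stood at 58.6, 58.3 and 58.6 CPM in No40, DSY127 and the iPS library, 3.92 CPM in No20 and 8.07 CPM in fibroblasts. Its No20 level was 14.9 times below the lowest reference value (95% interval 12.7 to 17.6). The other 6 genes of the naive list that reached 5 CPM were not in the set, with ratios from 0.562 to 1.99. PRDM14, a regulator of germ cell fate and pluripotency, stood at 83.6 CPM in No20 against 160.1 to 323 CPM, and the nuclear receptor NR5A2 at 48.7 against 62.2 to 83.0 CPM. TFAP2C also stands on a trophoblast and amnion list, as the 1 gene in the set of 4 at 5 CPM or more. In No20, 2 of these 4 stood below 0.5 times the lowest reference value (50%, against 3.44% of all 10285 genes). The summed level of that list was 64.2 CPM in No20 against 150 to 409 CPM, and this was not tested.

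The next 13 genes are described together because of their known roles in neurons, a grouping made after the values were seen and not a tested theme. DCLK1, a microtubule-binding kinase of migrating neurons, was the most abundant of these in CPM, with 178, 236 and 239 CPM in the reference libraries and 27.9 CPM in No20, close to the 26.3 CPM of fibroblasts. Its relative DCLK3 stood at 14.4 to 42.5 CPM in the reference libraries, 0.686 in No20 and 0.102 in fibroblasts. NPTX2, a secreted synaptic pentraxin, stood at 72.7, 109 and 104 CPM, at 11.6 CPM in No20 and at 22.4 CPM in fibroblasts. No20 and fibroblasts were thus close for DCLK1, and both kept a clear level of NPTX2.

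Most of the other neuronal genes were at a low level in No20 and lower still in fibroblasts. SLC17A7, the vesicular glutamate transporter 1, stood at 27.0, 14.3 and 13.1 CPM in the reference libraries, 1.94 in No20 and 0.239 in fibroblasts. SLC1A6, a glutamate uptake transporter of the cerebellum, stood at 8.83, 14.95 and 17.6 CPM, 0.539 in No20 and 0.0683 in fibroblasts. ELAVL3, a neuronal RNA-binding protein, stood at 10.6 to 15.2 CPM, 0.686 in No20 and 0.290 in fibroblasts. NCAN (a brain proteoglycan), CHD5 (a chromatin remodeller), KCNH3 (a potassium channel) and ECEL1 (a neuronal endopeptidase) followed the same order, with 0.980, 1.42, 1.42 and 0.735 CPM in No20 and between 0 and 0.751 CPM in fibroblasts. CELF6, a splicing regulator, and ATCAY, a cerebellar protein mutated in Cayman ataxia, showed the reverse order, with 0.539 and 0.122 CPM in No20 and 1.09 and 1.16 CPM in fibroblasts. MAP6, a microtubule-stabilising protein, stood at 1.10 CPM in No20 and 2.80 CPM in fibroblasts. On lists fixed by symbol, none of the 12 synapse and neuronal adhesion genes and none of the 4 neural genes at 5 CPM or more were in the set.

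**Figure D2:**
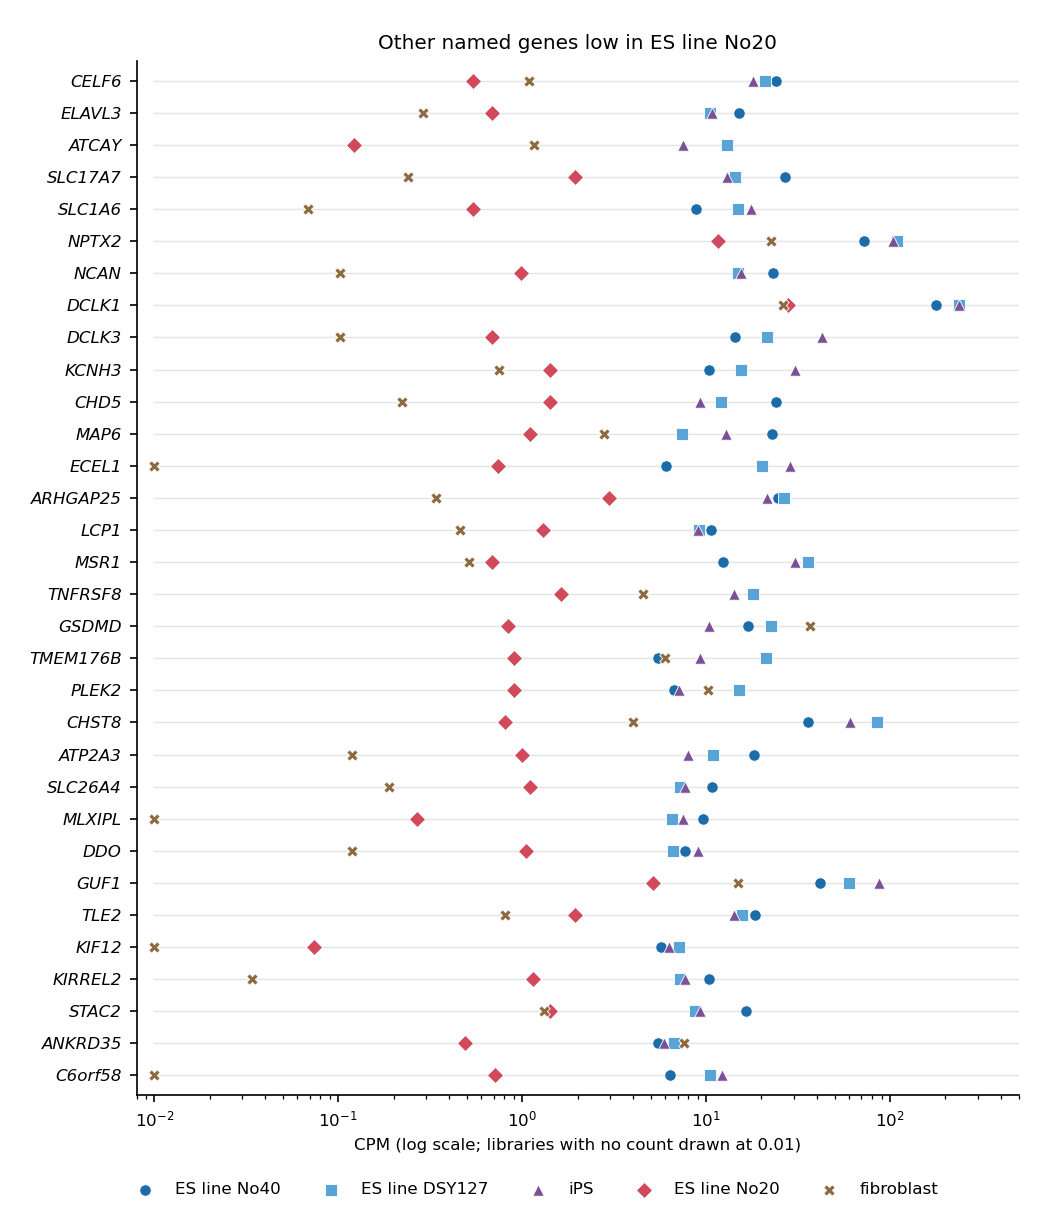
Level of the other 32 genes with a symbol in each of the 5 libraries, in CPM on a log axis, with the genes in the order neuronal, blood and immune, transport and enzymes, and others. For ELAVL3, NCAN and ARHGAP25 the fibroblast symbol lies left of No20, whereas for GSDMD and ANKRD35 it lies right of the reference libraries.

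The 6 genes described next have known roles in blood and immune cells or the cytoskeleton, and were also grouped after the values were seen. No gene of the blood list reached 5 CPM in the reference libraries. ARHGAP25, a Rac regulator of leukocytes, stood at 24.5, 26.4 and 21.4 CPM in the reference libraries, 2.96 in No20 and 0.341 in fibroblasts. LCP1, the leukocyte actin-bundling protein L-plastin, stood at 9.05 to 10.7 CPM in the reference libraries and at 1.30 CPM in No20, and MSR1, a macrophage scavenger receptor, at 12.3 to 35.7 CPM and 0.686 CPM. TNFRSF8, which encodes CD30, a surface marker of human pluripotent and embryonal carcinoma cells, stood at 17.8, 18.1 and 14.3 CPM against 1.62 CPM in No20. GSDMD, the pore-forming protein of pyroptosis, stood at 16.9, 22.5 and 10.4 CPM, at 0.833 CPM in No20 and at 37.0 CPM in fibroblasts. Here No20 was the low library among all 5, and fibroblasts the high one. PLEK2, a pleckstrin of the actin cytoskeleton, had the same low library, with 0.906 CPM in No20 against 6.66 to 15.04 CPM in the reference libraries and 10.2 CPM in fibroblasts. No gene of the interferon and antigen presentation list was in the set, and 8 of its 12 genes at 5 CPM or more stood higher in No20 than in any reference library (66.7%, against 27.5% of all 10285 genes).

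Of the remaining genes with a symbol, 5 are enzymes, transporters or translation factors. CHST8, a sulfotransferase that modifies pituitary hormones, stood at 35.98, 84.9 and 60.7 CPM in the reference libraries, 0.808 in No20 and 4.03 in fibroblasts. GUF1, a mitochondrial translation factor, stood at 41.7, 60.2 and 87.2 CPM, 5.12 in No20 and 14.9 in fibroblasts. Both were thus lowest in No20. SLC26A4, an anion exchanger of the inner ear and thyroid, ATP2A3, a calcium pump, and DDO, which oxidises D-aspartate, stood at 1.10, 1.004 and 1.05 CPM in No20, and each was lower in fibroblasts (0.188, 0.119 and 0.119 CPM). MLXIPL, a glucose-responsive transcription factor, and KIF12, a kinesin, stood at 0.269 and 0.0735 CPM in No20 and had no count in fibroblasts. KIF12 in No20 rests on 3 counts, and its ratio of 77.8 has a 95% interval of 26.3 to 379.7.

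Among the 21 genes without a symbol, the most abundant in CPM in the lowest reference library were ENSCJAG00000005453 and ENSCJAG00000019600. ENSCJAG00000005453 stood at 159, 137 and 190.2 CPM in the reference libraries, 6.83 in No20 and 1.01 in fibroblasts. ENSCJAG00000019600 stood at 88.0, 112 and 136 CPM, 7.72 in No20 and 93.9 in fibroblasts, so No20 alone was low.

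Levels per length put the genes in another order, since gene models ran from 318 to 8231 bases. Per kilobase, KHDC3L had 149, 498 and 294 CPM in No40, DSY127 and the iPS library, NLRP7 69.3, 247 and 229 CPM, DDX43 59.3, 94.9 and 183 CPM, and DCLK1 21.6, 28.7 and 29.0 CPM. On this scale KHDC3L was the highest of these 4 in each reference library, and DCLK1 the lowest. The median gene length of the set was 2290 bases, close to the 2482 bases of all genes at 5 CPM or more. The set was less abundant than those genes, with a median of 12.2 CPM in the lowest reference library against 30.6 CPM.

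The reference values entered the rule, and the set was less abundant than other genes, so their spread is a description. The highest reference value exceeded the lowest by a median of 1.92 times, against 1.59 times over all 10285 genes, and by 3 times or more for 14 of the 69 (20.3%) against 6.36%. No40 was the lowest reference library for 35 of the 69 genes (50.7%), against 28.6% of all 10285, while DSY127 and the iPS library were lowest for 17 each. NLRP9 and RBM46, with spreads of 25.5 and 18.8 times, were the 2 genes over 10 times, and both were lowest in No40. Leaving 1 library out of the rule can only add genes, and all 69 were kept each time. Without No40 in the rule 131 genes met it, without DSY127 91 and without the iPS library 83.

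The fibroblast library was not used to choose the genes, and it asks whether genes low in No20 are also low in a somatic cell. Most were. In fibroblasts 55 of the 69 (79.7%) stood at least 6 times below the lowest reference library, against 8.72% of the 10285 genes, and 14 (20.3%) had no count there against 0.71%. Only 13 of the 69 reached 5 CPM in fibroblasts (18.8%, against 88.8%), and 6 stood at or above the lowest reference library (8.70%, against 50.0% of all). Set beside No20 itself, fibroblasts were lower for 45 of the 69 and higher for 24. The share higher, 34.8%, was near the 35.1% of all 10285 genes. In bulk RNA, fewer cells with a transcript and less of it per cell cannot be told apart.

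**Figure D3:**
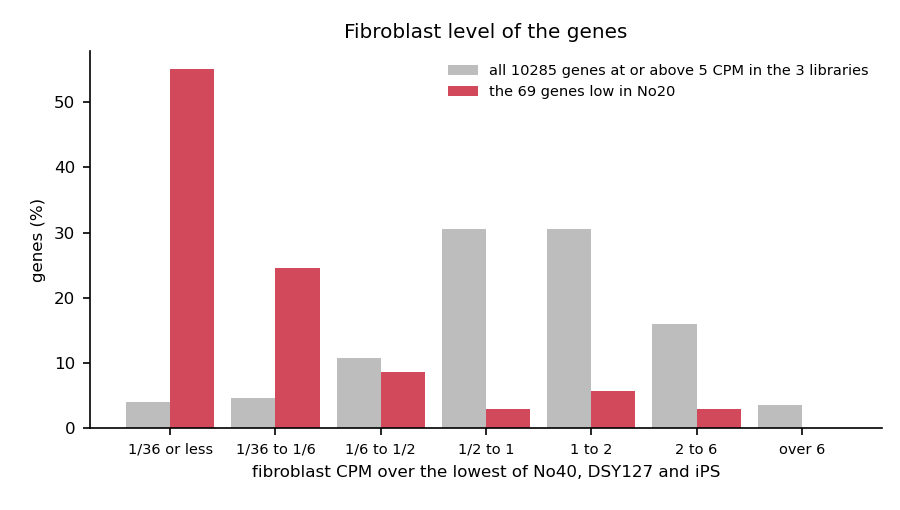
Share of genes (%) by the ratio of fibroblast CPM to the lowest of No40, DSY127 and the iPS library, for all 10285 genes at 5 CPM or more in those libraries (grey) and for the 69 genes (red). Of the 69, 55.1% lie at 1/36 or less, against 4.10% of all, and none lies over 6.

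The difference was tested with edgeR's quasi-likelihood test over 17462 genes, with the fibroblast library set against the 3 reference libraries, No20 kept as a level of its own, and Benjamini-Hochberg adjustment (called under an adjusted p of 0.05). Of the 69 genes, 57 were lower in fibroblasts (82.6%), against 11.2% of all genes tested and 11.4% of those at 5 CPM or more in the reference libraries. None was called higher by edgeR, against 9.37% and 9.03%; 2, GSDMD and ENSCJAG00000023273, were higher at an unadjusted p under 0.05, and DESeq2 and limma voom each called 2 higher. The median log2 fold change of the 69 was -5.625, both as fitted and with the genes at no count set at their bound. The same median was -0.18 for all genes tested and -0.011 for those at 5 CPM or more in the reference libraries. Since the rule required 5 CPM in each reference library, all 69 passed the filter on low counts through those libraries. The 11.4% shares that minimum but is not matched on abundance. In the lowest reference library the median was 12.2 CPM for the 69 against 30.6 CPM. The reference values of this contrast also entered the rule, and the 11.4% is not matched on the difference from No20. The fibroblasts are 1 library, assumed to vary like a reference library, so the p-values rest on the spread between the 3 reference libraries. The fit draws the spread of each gene toward a trend over all genes, so a p-value does not measure that gene's own spread alone.

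With the 3 ES lines as the reference group, No20 included, 6 of the 69 were called lower instead of 57. In that grouping the rule itself puts a difference of at least 6 times between No20 and the other lines of the group. Leaving out 1 reference library gave 54 to 57.

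Among the germline genes all 10 list members were lower in fibroblasts, with a median log2 fold change of -10.32 as fitted and of -8.47 with the 4 genes without a fibroblast count (NLRP9, STRA8, TDRD1 and MAEL) at their bound. NLRP7 stood at 0.137 CPM against 596.5 ± 321 CPM (mean ± SD, n = 3) in the reference libraries (log2 fold change -11.70 ± 1.30 SE, edgeR adjusted p = 0.00174). DDX43, which is on no list, stood at 0.171 against 219 ± 124 CPM (-9.94 ± 1.12, edgeR adjusted p = 0.00181), and KHDC3L at 7.93 against 246 ± 137 CPM (-4.59 ± 0.84, edgeR adjusted p = 0.0092). Both are far below every reference library, KHDC3L less so. STRA8 and TDRD1, without a count in fibroblasts, had means in the reference libraries at least 276-fold and 455-fold higher, with the fibroblast library set at 3 counts (edgeR adjusted p = 0.0014 and 0.00228). TDRD6 had the smallest difference of the 10, at 2.71 against 18.4 ± 2.85 CPM (-2.40 ± 0.61, edgeR adjusted p = 0.031), and it did not pass without No40 (edgeR adjusted p = 0.0576; range over the 12 alternatives 0.000184 to 0.452). NLRP9 (edgeR adjusted p = 0.0132) and the unlisted RBM46 (edgeR adjusted p = 0.022) passed with edgeR and DESeq2 but not with limma voom (adjusted p = 0.206 and 0.198, each the highest of its 12 alternatives).

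Outside the germline lists, TFAP2C fell from 58.5 ± 0.22 CPM (n = 3) in the reference libraries to 8.07 CPM (log2 fold change -2.49 ± 0.48, edgeR adjusted p = 0.0115). DCLK1 fell from 218 ± 34.3 to 26.3 CPM (-2.69 ± 0.46, edgeR adjusted p = 0.00759), a level near that of No20. NPTX2 passed narrowly (-1.73 ± 0.48, edgeR adjusted p = 0.0414) and did not pass without DSY127 (edgeR adjusted p = 0.0976; range 0.0042 to 0.495). ATCAY (-2.89 ± 0.75, edgeR adjusted p = 0.0321) did not pass without No40 or without DSY127, nor STAC2, a muscle and neuronal adaptor protein, without No40. CELF6 fell with a log2 fold change of -3.90 ± 0.66, ARHGAP25 with -5.76 ± 0.71 and SLC17A7 with -5.86 ± 0.90, each past the threshold.

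The 12 genes that did not pass include those that stood high in fibroblasts. GSDMD stood at 37.0 against 16.6 ± 6.06 CPM (log2 fold change 1.51 ± 0.51, edgeR adjusted p = 0.0773, and 0.0435 without DSY127, in a range of 0.0413 to 0.342). ENSCJAG00000019600 stood at 93.9 against 112 ± 24.03 CPM (0.11 ± 0.41, edgeR adjusted p = 0.883) and PLEK2 at 10.2 against 9.61 ± 4.71 CPM (0.45 ± 0.65, edgeR adjusted p = 0.670). In these 3 genes the No20 library stood well below fibroblasts, at 0.833, 7.72 and 0.906 CPM. GUF1 (-1.72 ± 0.58, edgeR adjusted p = 0.0776) and TMEM176B, a transmembrane protein (-0.64 ± 0.83, edgeR adjusted p = 0.627), did not pass either.

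**Figure D4:**
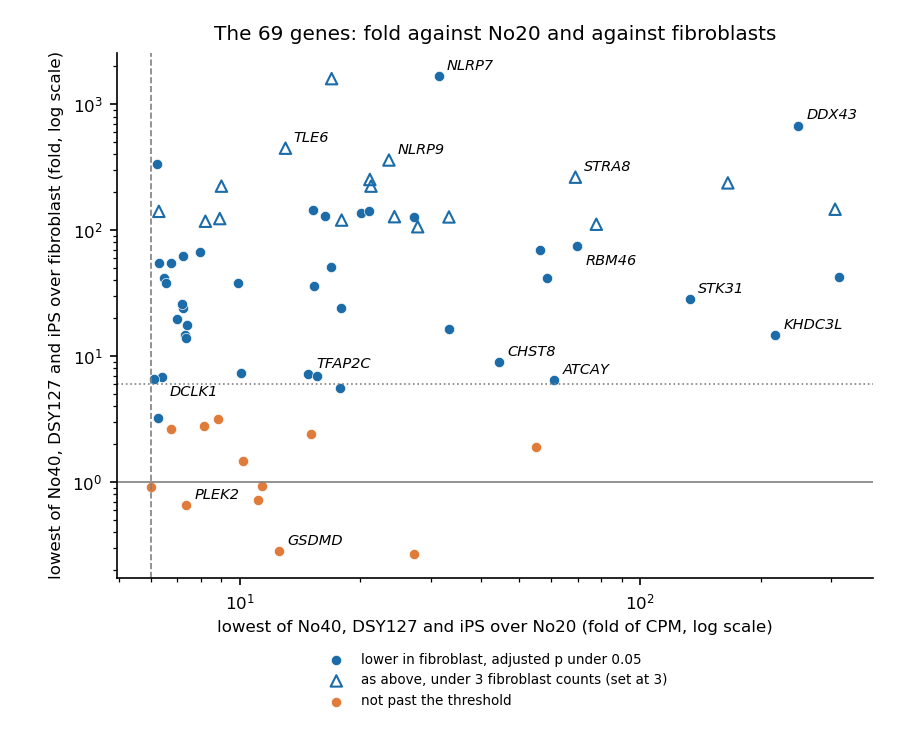
Each of the 69 genes by its lowest reference CPM over No20 (x axis) and over fibroblasts (y axis), both log scales; open triangles are genes with under 3 counts in fibroblasts, set at 3. The dashed line is the threshold of the rule, so no point lies left of it, and the dotted and solid horizontal lines mark ratios of 6 and 1; 55 genes lie above the dotted line and DDX43, KHDC3L and STK31 lie far right.

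The genes were spread over 21 chromosomes by the coordinates in the files (build not given in the sources used here). Chromosome 22 held 11 of the 69 (15.9%), against 6.53% of all genes at 5 CPM or more, among them NLRP7, NLRP9, CHST8, ATCAY, ELAVL3, SLC17A7, SLC1A6 and KIRREL2. Chromosomes 15 and 21 held none, with 411 and 105 genes at 5 CPM or more. The median ratio of No20 to the median reference library was 1.33 over genes of chromosome 9 and 1.32 over chromosome 15, against 0.911 to 1.17 over the others. Chromosome 9 held 5 of the 69 (7.25%, against 5.23% of all genes at 5 CPM or more), and chromosome 22 had the ratio of 0.911.

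At 3 places genes of the set lay side by side, and the neighbours named here were not in the set. KHDC3L (ENSCJAG00000009947, 71644408 to 71646131 on chromosome 4) and DDX43 (ENSCJAG00000009966, 71672609 to 71690637) lie 26.5 kb apart on the same strand, with 2 gene models between them that did not reach 5 CPM. Of these, ENSCJAG00000009962 stood at 0.494 to 1.04 CPM in the reference libraries and 0.049 CPM in No20. Before KHDC3L, ENSCJAG00000028047 stood at 1.05 to 2.61 CPM and had no count in No20. KCNQ5, further out, stood at 0.430 to 0.696 CPM and at 0.588 CPM in No20. Past DDX43, CGAS, a sensor of cytosolic DNA that missed the 5 CPM minimum in No40, stood at 5.17 CPM in No20 against 4.71 to 13.1 CPM, and MTO1, a mitochondrial tRNA-modifying enzyme, at 38.8 against 40.0 to 43.5 CPM. NLRP7 (ENSCJAG00000017703, 45889862 to 45913402 on chromosome 22) lies 20.5 kb from ENSCJAG00000017689, another gene of the set, which stood at 5.46 to 21.3 CPM in the reference libraries and 0.196 CPM in No20. Beyond it TNNI3, the cardiac troponin I gene, stood at 19.1 CPM in No20 against 25.4 to 29.2 CPM. NLRP9 (46612233 to 46645903) lies a further 664 kb along, with 17 genes at 5 CPM or more between that are not in the set. Beyond NLRP9, NLRP5 stood at 0.344 to 1.61 CPM in the reference libraries and had no count in No20. ZNF787, further along, stood at 24.4 CPM in No20 against 18.9 to 19.1 CPM.

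TLE6 (ENSCJAG00000018653, 97949758 to 97957712 on chromosome 12) and TLE2 (ENSCJAG00000018666, 97964123 to 97991185), Groucho-family corepressor genes, lie 6.4 kb apart on opposite strands. TLE2 stood at 18.4, 15.8 and 14.3 CPM in the reference libraries, 1.94 in No20 and 0.802 in fibroblasts. Its pattern was close to that of TLE6 in the libraries the rule used, but TLE6 was lower in fibroblasts (0.0341 CPM). On either side SMNDC1, a splicing factor, stood at 73.3 CPM in No20 against 35.7 to 71.7 CPM, and SMC3, a cohesin subunit, at 251 against 303 to 334 CPM. The exons of 4 of the 69 genes, DDO, GSDMD, TMEM176B and ENSCJAG00000019653, overlap those of another gene model, on the same strand for DDO, and their reads may be shared.

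**Figure D5:**
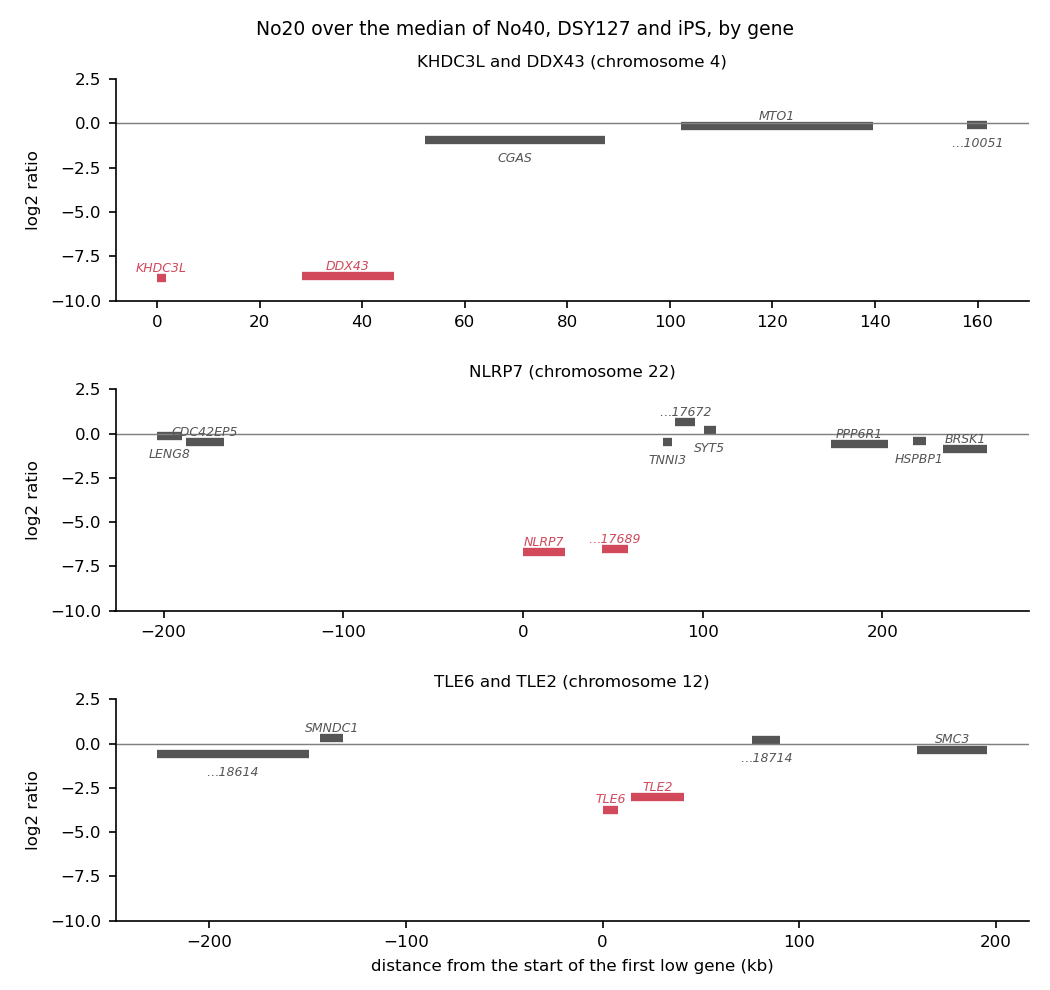
The log2 ratio of No20 CPM to the median of No40, DSY127 and the iPS library for genes at 2 CPM or more in those libraries, by distance (kb) from the start of the first low gene, at 3 places. Red bars are genes of the set and grey bars their neighbours, which lie between -1 and 1. Neighbours under 2 CPM in any of those libraries are not drawn. Identifiers without a symbol are shortened to their last digits.

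Gene families and pathways outside the germ line are given beside the 0.671% of all 10285 genes that met the rule. At that share a short list holds no gene or 1, so a count of 0 in it is not a result. None of 200 zinc finger genes at 5 CPM or more, 19 imprinted genes, 16 genes of DNA methylation, 15 epithelial genes or 14 genes of WNT signalling met the rule. Of 154 solute carriers 3 did (1.95%; SLC17A7, SLC1A6 and SLC26A4), of 18 Polycomb and chromatin genes 1 (5.56%; CHD5), of 41 matrix and adhesion receptor genes 1 (2.44%; NCAN) and of 8 potassium channel genes 1 (12.5%; KCNH3). These shares lie above that of all genes, each on 1 to 3 genes, and were not tested. Of the potassium channel genes, 4 stood below 0.5 times the lowest reference value in No20, and the others of these were KCNG1, KCNG3 and KCNN1 at 4.12, 3.80 and 4.56 CPM against at least 11.5, 15.7 and 11.3 CPM.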

How the data were processed

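Read counts per gene in 5 libraries were analysed. The authors deposited whole-number counts, not normalized, in a series table and in 1 file per library, and the 5 library columns were identical in both. Per the submitters' processing notes, the tools included STAR 2.5.3a, Trim Galore 0.4.0 and featureCounts 1.5.2, whose roles the notes do not state here. Genome build, strand and multi-mapping settings: not given in the sources used here. A symbol matched 12660 of 30811 identifiers (41.1%).

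CPM used column totals. Counts were fitted in R 4.3.3 with edgeR 4.0.16 (filterByExpr, TMM factors, estimateDisp, glmQLFit, glmQLFTest), with 3 levels (fibroblast, the 3 reference libraries, No20) and 2 residual degrees of freedom. P-values were adjusted by Benjamini-Hochberg. The SE of a log2 fold change is its size over the square root of the F statistic. limma 3.58.1 and DESeq2 1.42.0 were alternatives. The steps were tested on simulated counts. Intervals and floors cover counting error only. Nothing says that the libraries are separate cultures of 1 kind.

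The genes, lists and tests were chosen with earlier results of these data known. Genes named are the 15 with a symbol highest in the lowest reference library, the 10 with the largest ratio, all on a list, the 5 highest in fibroblasts, any called higher there, the 3 nearest each side of the threshold, and the 2 highest without a symbol. Other genes, and all groupings by function, were picked after their values were seen. No sequence is shown.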

Additional observations from a re-analysis of the deposited data

How the results depend on the processing

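The number of genes that met the rule depends on its thresholds: a ratio of 4 gave 119 and of 10 gave 43, and a minimum of 1 CPM gave 160 and of 10 CPM gave 43. Scaling with TMM or RLE factors gave 69 and 67, of which 68 and 66 were among the 69, and leaving out 1 reference library gave 83 to 131. The count lower in fibroblasts was 54 to 61 in 11 of 12 alternative fits and 6 with the 3 ES lines as the reference, where No20 is part of the group. The count higher in fibroblasts, 0, became 1 with no low-count filter, 2 with DESeq2, 2 with limma voom, 1 with 2 ES lines as the reference and 1 on leaving out any 1 pluripotent library; the cause was not tested. Among 35 named genes, signs turned in 3 of 420 alternative fits, none past the threshold: ENSCJAG00000019600 to -0.17 with upper-quartile factors and -0.25 with total counts alone, and TMEM176B to 0.17 without DSY127 (its range on leaving out 1 library was -0.90 to 0.17). Against TMM, the median over all genes of the log2 fold change moved by -0.37 with total counts alone and by -0.27 with upper-quartile factors. The calls over all genes, 1637 higher and 1958 lower, were then 1130 and 2282, and 1276 and 2209, while limma voom gave 2217 and 1983. The shallow iPS library limits precision near 5 CPM. No paired analysis was possible because the labels give no replicate number that groups share.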
